A study of Mus musculus with 12 samples.

Results

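Acetylation of histone H4 at lysine 12 (H4K12ac) was examined at 44 genes of DNA damage signalling and DNA repair, of 55413 annotated genes, in neuronal nuclei of the mouse hippocampus with and without TIP60. The list names genes by their role and uses no H4K12ac value, but it was drawn up with earlier results of these data known. It holds 4 checkpoint kinases, *Trp53* and its ubiquitin ligase *Mdm2*, 3 *Gadd45* stress genes, 8 genes that sense double-strand breaks or signal them on chromatin, 2 genes of homologous recombination, 5 of non-homologous end joining, 8 of base excision and single-strand break repair, 10 of nucleotide excision repair, the mismatch repair gene *Msh6* and the topoisomerase gene *Top2b*. All 44 are protein-coding genes of the annotation used. For each gene, peaks within 2 kb of the transcription start site (TSS) and peaks in the rest of the gene were read from 10 H4K12ac peak lists.

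The *Tip60* cKO libraries (n = 5) came from mice with the tamoxifen-inducible *CaMKCreERT2* driver and floxed *Tip60* on both alleles (*Tip60* f/f). The control libraries (n = 5) came from *Tip60* f/f mice that lack the driver, and both genotypes received tamoxifen and had a labelled age of 3 months. The labels give male C57BL/6J mice, whereas the methods give a C57BL/6N background and animals of either sex. The driver acts in postmitotic excitatory neurons of the forebrain, while nuclei of neurons were sorted by FACS from the whole hippocampus, so the *Tip60* cKO libraries also hold neurons in which *Tip60* is not deleted. A pooled input library per genotype served as the background of all 5 lists of that genotype, and where nothing states that each library came from another animal, p-values measure only the spread between these libraries.

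DNA damage is sensed by kinases such as ATM and ATR, which phosphorylate histone H2AX and effector kinases, stabilise p53 and recruit repair factors to the lesion. Neurons that have left the cell cycle depend on end joining, base excision repair and transcription-coupled nucleotide excision repair, since homologous recombination uses a sister chromatid. TIP60 is an acetyltransferase of histone H4 that also takes part in the damage response by acetylating ATM, and H4K12ac is a mark of active promoters. The lists describe acetylation of the chromatin at the repair genes, not damage or the amount of repair protein.

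Promoters are shown for 4 members that stand out in the results below and have no other TSS in their window. *Mdm2* had the highest mean rank of all members in both genotypes, *Gadd45g* and *Rnf168* passed the test on coverage, and *Trp53bp1* was one of 3 members with an unadjusted p below 0.05 for the rank score. Each sequence is the 250 bases before the RefSeq start on GRCm38.p6, 5′ to 3′ on the strand of the gene, at chr10:117710759-117711008 (minus) for *Mdm2*, chr13:51846425-51846674 (plus) for *Gadd45g*, chr16:32277211-32277460 (plus) for *Rnf168* and chr2:121271408-121271657 (minus) for *Trp53bp1*. Capitals mark every match on either strand to the GC box GGGCGG, the CCAAT box, the ETS motif CCGGAAG, the E-box CACGTG, the E2F site TTTCGCGC or its variant TTTGGCGC, the NRF1 core GCATGCG or the cyclic AMP response element (CRE) TGACGTCA.
Mdm2: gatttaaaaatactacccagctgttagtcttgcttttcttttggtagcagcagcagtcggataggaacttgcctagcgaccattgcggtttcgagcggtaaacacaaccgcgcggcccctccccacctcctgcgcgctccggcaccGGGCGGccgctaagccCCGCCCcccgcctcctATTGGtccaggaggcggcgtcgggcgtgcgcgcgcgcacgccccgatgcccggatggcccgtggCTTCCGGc
Gadd45g: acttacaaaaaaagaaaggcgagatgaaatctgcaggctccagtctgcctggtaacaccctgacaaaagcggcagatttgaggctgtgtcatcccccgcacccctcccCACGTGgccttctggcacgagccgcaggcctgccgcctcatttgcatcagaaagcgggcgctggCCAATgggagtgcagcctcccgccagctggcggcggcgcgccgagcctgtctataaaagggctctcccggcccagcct
Rnf168: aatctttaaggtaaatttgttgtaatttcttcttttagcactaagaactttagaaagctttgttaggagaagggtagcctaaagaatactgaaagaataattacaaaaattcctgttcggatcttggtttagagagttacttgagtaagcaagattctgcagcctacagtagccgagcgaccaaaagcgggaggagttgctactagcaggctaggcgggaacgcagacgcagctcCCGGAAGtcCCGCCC
Trp53bp1: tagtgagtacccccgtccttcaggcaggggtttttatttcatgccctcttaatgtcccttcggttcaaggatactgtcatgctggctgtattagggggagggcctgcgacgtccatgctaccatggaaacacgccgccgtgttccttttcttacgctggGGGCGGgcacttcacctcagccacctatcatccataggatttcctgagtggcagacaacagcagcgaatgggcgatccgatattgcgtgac

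RefSeq promoters were matched for 36 of the 44 genes (not for *Rad50*, *Nbn*, *H2afx*, *Prkdc*, *Polb*, *Ddb2*, *Xpc* and *Ercc3*). Of these 36, 31 (86.1%) had a CpG observed over expected ratio above 0.6, compared with 34.5% of 27025 promoters, and the median ratio was 0.819 against 0.378. A GC box stood in 22 (61.1%, 32.9% of all promoters), a CCAAT box in 21 (58.3%, 34.5% of all), CACGTG in 8 (22.2%, 6.05% of all), an NRF1 core in 6 (16.7%, 3.07% of all) and an ETS motif in 6 (16.7%, 7.05% of all). A CRE was found in 1 (2.78%, 1.62% of all), and these letters of E2F were in none of the 36 windows (0.673% of all). The 27025 promoters used for comparison were not limited to protein-coding genes, whereas all members are protein-coding, so the 2 sets are not alike. The promoters of the repair genes are thus mostly CpG-rich, a property that many promoters of constantly used genes share, and a match describes letters and not a bound factor.

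The strength of a TSS was read in 3 ways. The rank score is the percentile, within its library, of the strongest peak by fold enrichment within 2 kb of the TSS, and it is 0 where no peak was called. It is taken over all 55413 annotated genes, so weak called peaks still score high, and this floor depends on how many genes have a peak. A fold enrichment of 2.75 (*Mdc1*, control library 1) scored 66.8, and one of 3.30 (*Rnf8*, *Tip60* cKO library 5) scored 73.2. Coverage is how much of the 4 kb window around the TSS is inside peaks, in percent. Relative fold enrichment is the log2 of the strongest peak's fold enrichment divided by the library median, and is given only for genes with a peak in all 10 lists. Between 22864189 and 37923809 tags per library gave 64245 to 136409 peaks, and the shortest list was that of *Tip60* cKO library 5. The share of peaks called against the genome-wide background (within 2% of it), and not against a higher local input level, ranged from 53 to 58.7% in the *Tip60* cKO lists and only from 28.3 to 35.7% in those of controls, whose pooled input is another. All 6 neuronal marker genes had a TSS peak in all lists, compared with 0 of 4 astrocyte, 0 of 4 microglia and 0 of 4 endothelial markers. Markers of other cells with peaks included *Mbp*, a myelin gene, with a peak in all lists and rank scores of 95.9 ± 1.14 and 96.5 ± 1.17, and the astrocyte gene *Gfap*, with a peak in 4 *Tip60* cKO and 5 control lists (57.1 ± 32.2 and 75.9 ± 7.62) and a coverage that fell from 19.6 ± 4.87 to 4.60 ± 3.36% in *Tip60* cKO (adjusted p = 0.0287, limma). The microglial *P2ry12* had a peak in 1 and 4 lists, the astrocyte gene *Slc1a3* in 1 and 2, and the endothelial *Cldn5* and *Flt1* in 1 and 0 each. Coverage of the 6 neuronal markers was lower in *Tip60* cKO at all 6, and it fell at *Syt1*, a synaptic vesicle gene, from 51.4 ± 7.80 to 29.2 ± 7.07% (adjusted p = 0.0315, limma). The part of other cells in the results was not tested. Library medians of the rank score were 82.4 to 92.8 for the neuronal markers and 0 to 39.6 for the astrocyte, oligodendrocyte, microglia and endothelial lists. *Aqp4*, *Aldh1l1*, *Mog*, *Cx3cr1*, *Csf1r*, *Aif1*, *Pecam1* and *Tek* had no TSS peak in any list. *Kat5*, the gene of TIP60, kept peaks at its TSS in all lists (rank score 94.8 ± 5.07 in *Tip60* cKO and 97.6 ± 2.08 in control, SD, n = 5 each), and its deleted exons were not measured here.

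Repair genes carried H4K12ac at their start sites in nearly every library. A TSS peak was present in all 10 lists at 33 of the 44 genes (75.0%), compared with 44% of 21938 protein-coding genes. The other 11 genes had a peak in 1 to 9 lists, and only *Parp2*, the less abundant relative of *Parp1*, had a peak in fewer than 2, so that 43 genes were tested. Members with a TSS peak numbered 43, 38, 41, 39 and 38 in *Tip60* cKO libraries 1 to 5 and 43, 43, 42, 40 and 42 in control libraries 1 to 5. The median summit lay downstream of the TSS at 21 of the 33 genes with peaks in all lists (63.6%), compared with 69.7% of all genes with peaks in all lists.

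Divergent promoters were frequent on the list. An opposite-strand TSS lay within 1 kb of 21 of the 44 genes (47.7%), compared with 26.5% of the 13689 protein-coding genes that had a TSS peak in at least 2 lists. The pairs include *Atm* and *Npat*, *Brca1* and *Nbr1*, *Prkdc* and *Mcm4*, *Chek2* and *Hscb*, *Mre11a* and *Ankrd49*, *Trp53* and *Wrap53*, *Xpc* and *Lsm3*, and *Ddb1* and *Tkfc*. Peaks carry no strand, so at these genes the acetylation cannot be assigned to the repair gene or to its neighbour. *Mdm2*, *Gadd45b*, *Gadd45g*, *Rnf168*, *Trp53bp1*, *Parp1*, *Xpa*, *Ercc1* and *Ercc6* have no other annotated TSS in the window.

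Between the genotypes, no repair gene passed the test for its place among all start sites, while most had lower coverage in *Tip60* cKO. Over the 44 genes, *Tip60* cKO libraries had a median rank score of 82.7 ± 1.40 and control libraries one of 82.7 ± 1.36. Over all genes tested these medians were 80.4 ± 0.503 and 80.5 ± 0.0968. Of the 43 tested genes, 23 had a lower and 20 a higher rank score in *Tip60* cKO, with a median difference of −0.62 (−0.69 over all 21672 genes tested, of which 55.6% were lower). None of the 43 passed an adjusted p of 0.05 (limma), while 0.235% of all genes tested did, and 3 had an unadjusted p below 0.05, compared with 11.8% of all. These were *Ercc1*, *H2afx* and *Trp53bp1*.

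Coverage was lower in *Tip60* cKO at 39 of the 43 genes (90.7%, compared with 81.0% of all genes tested), with a median difference of −5.31 percentage points (−4.01 over all). At an unadjusted p below 0.05, 12 genes were lower and none was higher (23.2% of all genes tested passed it in either direction). *Gadd45g* and *Rnf168* fell at an adjusted p below 0.05 in limma, 2 of 43 against 1.56% of all genes, of which 331 were lower and 8 higher. Mean coverage of the 43 tested genes was 21.8, 16.3, 18.8, 16.7 and 11.0% in *Tip60* cKO libraries 1 to 5 and 24.0, 24.9, 20.9, 18.8 and 25.1% in control libraries 1 to 5. The groups overlap, and the lowest value is that of the library with the fewest tags.

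Divided by the mean over all genes tested, the coverage of the 43 tested members was 0.939 ± 0.0206 in *Tip60* cKO (0.914 to 0.964) and 0.998 ± 0.0278 in control libraries (0.951 to 1.02), with *Tip60* cKO libraries 1 and 3 above control library 3. This ratio is given as a description. Fewer acetylated nuclei and less acetylation per nucleus cannot be told apart in such bulk libraries. Without *Tip60* cKO library 5 and control library 4, which had the fewest tags, 39 of 43 genes were lower, with a median of −4.33 points. With the same number of peaks taken from each list, 36 of 42 were lower, with a median of −4.46 points.

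**Figure D1:**
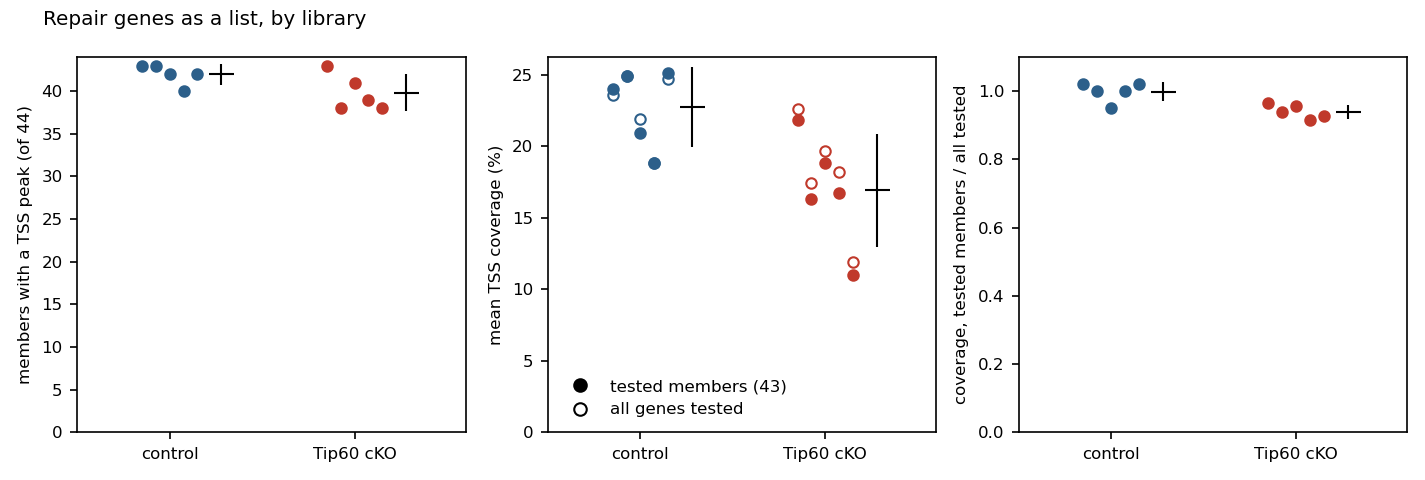
The list in each library, with 1 point per library (5 control, 5 *Tip60* cKO) and the mean ± SD beside the points: the number of members with a TSS peak, mean TSS coverage in percent for the 43 tested members (filled) and all genes tested (open), and the ratio of both. The *Tip60* cKO ratios span 0.914 to 0.964 and those of control libraries 0.951 to 1.02, so the groups overlap.

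Narrower peaks were about as frequent among all genes as among repair genes. The strongest TSS peak was narrower in *Tip60* cKO, by the median over libraries, at 28 of the 33 members with peaks in all lists (84.8%) and at 82.0% of all 13004 genes with peaks in all lists. Over these members its median length was 454 bp against 572 bp in control, and over all such genes 584 bp against 762 bp. Of the 44 members, coverage was lower upstream of the TSS at 35 and downstream at 35, with median differences of −6.54 and −5.14 points. Shares over all genes are not given for each side, and over the whole window 81.0% of all genes tested were lower.

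The heights of the peaks, taken as the tallest pileup of fragments per 1000000 tags of the library, were also lower. The value itself uses no input, but only peaks called against the pooled input of the genotype have one. Pileup also depends on the fragment length, 179 to 213 bp in *Tip60* cKO and 199 to 216 bp in control libraries, which was not corrected for. Of 33 members, 31 were lower in *Tip60* cKO (median log2 difference −0.30, −0.27 over all 13004 genes), and 5 passed an adjusted p of 0.05 in limma, compared with 21.4% of all genes. These 5 were *H2afx* (log2 difference −0.55), *Rnf8* (−0.55), *Xrcc6* (−0.53), *Xpa* (−0.45) and *Ogg1* (−0.43). Relative to the median of each library the members' median was −0.03, 18 of 33 were lower, and none passed (0.131% of all genes passed). At *Xpa* the heights were 0.89, 0.758, 0.959, 0.85 and 0.744 in *Tip60* cKO and 1.21, 1.03, 1.1, 1.2 and 1.19 in control libraries. All *Tip60* cKO values lay below all control values, as they did at 9.96% of all genes.

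**Figure D2:**
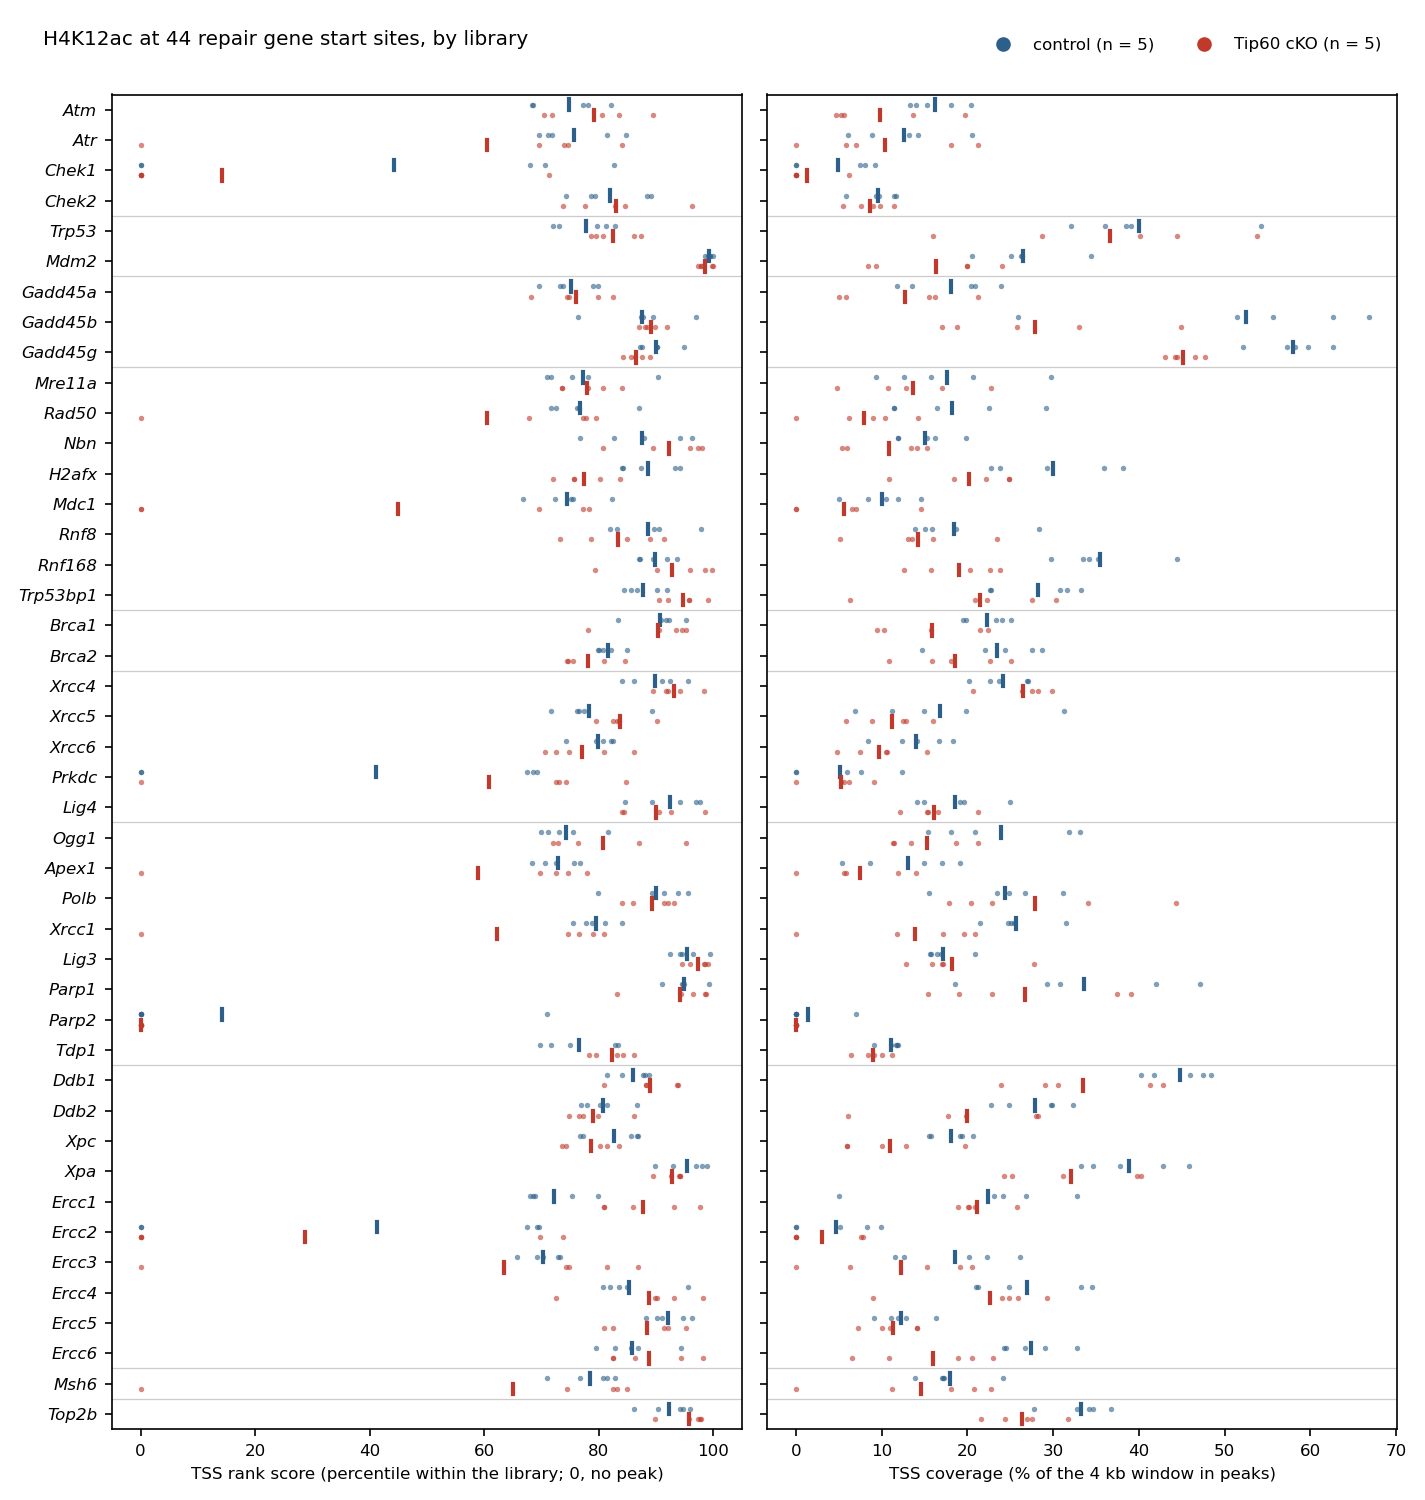
TSS rank score (left, percentile within the library, 0 where no peak was called) and TSS coverage (right, percent of the 4 kb window) of all 44 genes, with 1 point per library (5 control in blue, 5 *Tip60* cKO in red), a bar at each mean, and lines between the groups of genes. *Mdm2* lies at 97.3 to 100 in all libraries, 11 genes have at least 1 library at 0, and coverage is shifted to lower values in *Tip60* cKO at most genes.

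Among the checkpoint kinases no difference passed the test. *Atm*, the kinase activated by double-strand breaks (chr9:53439149-53536740), had the rank scores 83.6, 80.6, 70.4, 71.9 and 89.4 in *Tip60* cKO and 78.1, 68.6, 68.3, 77.2 and 82.1 in control libraries (difference 4.30 ± 4.42, SE, unadjusted p = 0.355, limma), and the groups overlap. Its coverage was 13.7, 4.67, 5.30, 19.7 and 5.67% against 18.1, 14.0, 13.3, 15.3 and 20.4%, so 3 of 5 *Tip60* cKO libraries lay below all controls (adjusted p = 0.26). The strongest peak lay upstream of the *Atm* TSS in 8 of 10 lists, on the side of *Npat*.

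*Atr*, the kinase that responds to single-stranded DNA, had the rank scores 74.7, 0, 69.6, 84.1 and 74.0 in *Tip60* cKO and 81.4, 71.8, 84.8, 69.6 and 71.1 in control. Only *Tip60* cKO library 2 lacked its peak. *Chek1*, the effector kinase below ATR that acts in dividing cells, had 71.4, 0, 0, 0 and 0 against 82.7, 70.7, 68.0, 0 and 0, so that 6 of 10 lists had no peak at its TSS. Where present, its fold enrichment was 3.49 in *Tip60* cKO library 1 and 5.29, 3.45 and 3.18 in control libraries 1 to 3. *Chek2*, the effector kinase below ATM, ranked at 83.0 ± 8.57 and 82.0 ± 6.54, and its coverage was lower in *Tip60* cKO by less than the spread between libraries (8.69 ± 2.28 and 9.62 ± 2.36%).

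*Mdm2*, which marks p53 for degradation and is itself a p53 target (chr10:117688875-117710758), was among the most strongly acetylated start sites of all genes. Its rank scores were 97.8, 97.8, 97.3, 99.7 and 99.9 in *Tip60* cKO and 99.5, 98.5, 99.4, 99.1 and 100 in control, and its strongest peak had a summit 177 to 254 bp after the TSS in all 10 lists. The heights were 1.05, 0.893, 1.12, 1.34 and 1.40 against 1.51, 1.35, 1.48, 1.31 and 1.63, a log2 difference of −0.35 at an adjusted p of 0.0779 (limma), and the groups overlap. Coverage was 24.0, 20.0, 9.40, 20.0 and 8.37% against 34.4, 26.4, 25.1, 20.5 and 26.3%, with an overlap at control library 4 and an adjusted p of 0.141. Between 100 and 1000 bp upstream of the TSS, the side of the CpG-rich promoter printed above, 0 of 5 *Tip60* cKO and 3 of 5 control lists had a peak overlapping that stretch.

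*Trp53*, the gene of p53 (chr11:69580359-69591873), had the rank scores 80.7, 78.7, 86.1, 87.3 and 79.6 in *Tip60* cKO and 79.7, 81.2, 82.9, 73.0 and 72.0 in control (difference 4.71, unadjusted p = 0.146). The groups overlap, and the difference turned to −2.25 when peaks were ranked by height, a value that uses no input although the peaks were called against it. The local input background at its strongest peak was 1.0 times the genome level in *Tip60* cKO and 1.48 times in control, on average. Coverage was 36.6 ± 14.6% and 40.0 ± 8.42%.

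All 3 *Gadd45* genes, whose products bind repair and cell cycle proteins and are induced by stress and by neuronal activity, had lower coverage in *Tip60* cKO (median difference −12.85 points) and 2 of 3 an unadjusted p below 0.05, beside 81.0 and 23.2% of all genes tested. *Gadd45g* (chr13:51846678-51848468) had a coverage of 43, 46.5, 47.7, 44.2 and 44.4% in *Tip60* cKO and 57.3, 62.7, 59.7, 52.1 and 58.2% in control libraries. Every *Tip60* cKO value lay below every control value, as at 5.23% of all genes tested, and *Gadd45g* fell by 12.9 ± 2.42 points (SE, adjusted p = 0.0284, limma). Its rank score was 87.6, 84.2, 88.9, 85.7 and 86.3 against 90.2, 87.2, 94.9, 90.1 and 87.5 (difference −3.43, unadjusted p = 0.118), and these groups overlap. Coverage kept an adjusted p below 0.05 with 3 of the 10 libraries left out in turn (0.0177 to 0.0789 over the 10), and was lower in each. The adjusted p was 0.249 with windows of 1 kb and 0.121 with a robust prior. A peak upstream of the promoter printed above and a peak downstream of the TSS were present in all lists, and coverage was lower on both sides, at 22.4 ± 4.75 and 32.8 ± 5.54% upstream and 67.9 ± 8.13 and 83.2 ± 5.20% downstream.

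*Gadd45b* (chr10:80930073-80932204) had the largest difference of all 43 genes in coverage, with 44.9, 25.8, 33, 18.8 and 17.0% in *Tip60* cKO and 62.7, 66.8, 51.4, 25.9 and 55.7% in control. Control library 4 lies among the *Tip60* cKO values, and the difference of −24.6 ± 7.54 points had an adjusted p of 0.0979. Its rank scores were 89.1 ± 1.93 and 87.6 ± 7.36. *Gadd45a*, the p53-induced member, had a coverage of 12.8 ± 7.10 and 18.1 ± 5.18% and shares its window with the transcript *E230016M11Rik*.

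**Figure D3:**
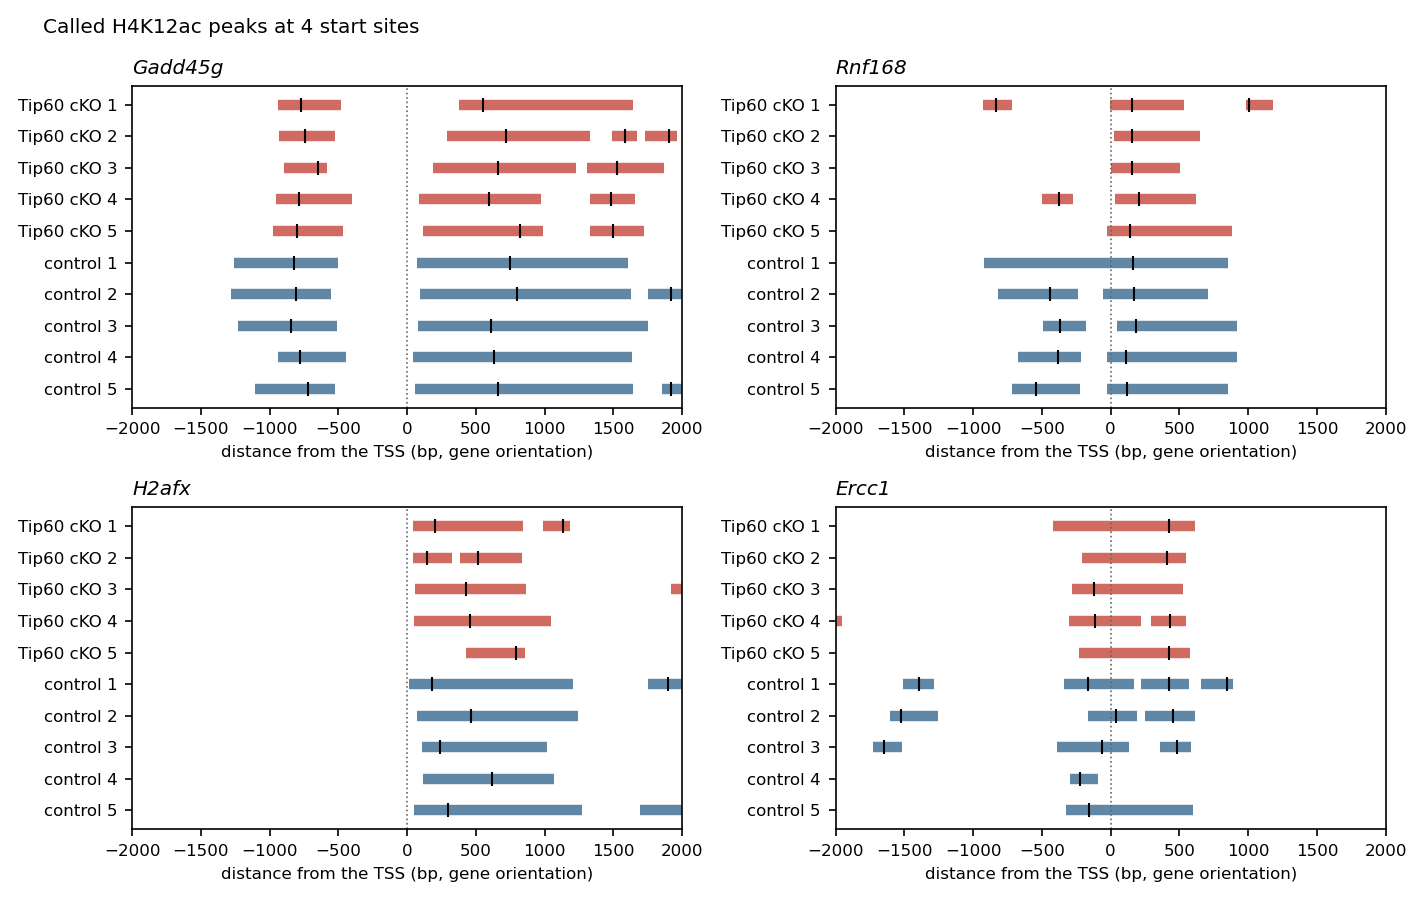
Called H4K12ac peaks (bars) with their summits (black ticks) within 2 kb of 4 start sites, in gene orientation, for each of the 10 libraries. At *Gadd45g* the peaks cover less sequence on both sides of the TSS in *Tip60* cKO, the peak upstream of *Rnf168* is seen in 2 of 5 *Tip60* cKO and 5 of 5 control lists, and the *H2afx* peak begins after the TSS in every list while at *Ercc1* most lists have peaks on both sides.

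In the genes that sense double-strand breaks and signal them on chromatin, coverage was lower at 8 of 8 (median difference −5.62 points) and 3 had an unadjusted p below 0.05, beside 81.0 and 23.2% of all genes tested, while 4 had a lower and 4 a higher rank score. *Rnf168*, the ubiquitin ligase that marks H2A next to breaks (chr16:32277459-32301434), had a coverage of 23.8, 15.8, 12.6, 20.3 and 22.6% in *Tip60* cKO and 44.4, 33.5, 29.8, 35.2 and 34.2% in control. The groups do not overlap, and coverage fell by 16.4 ± 3.22 points (SE, adjusted p = 0.0322, limma). It kept an adjusted p below 0.05 with 3 of the 10 libraries left out in turn (0.0233 to 0.0842 over the 10). The peak just after the TSS had rank scores of 79.3, 95.9, 98.6, 90.1 and 99.7 against 87.0, 87.2, 89.4, 93.7 and 91.9, and a log2 difference in height of 0.00 ± 0.16, so the groups overlap. On the upstream side, which is part of the window whose coverage was called, coverage was 11.1, 0, 0, 11.3 and 1.20% against 46.1, 31.6, 15.8, 24.4 and 25.6%. A peak overlapping the stretch between 100 and 1000 bp upstream, which begins within the promoter bases printed above, was present in 2 of 5 and 5 of 5 lists. Downstream coverage was 33.3 ± 7.21 and 42.2 ± 3.99%.

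*H2afx* encodes the histone H2AX, whose phosphorylated form marks breaks (chr9:44334694-44336077). Its rank scores were 75.6, 75.6, 83.7, 80.3 and 72.1 in *Tip60* cKO and 87.4, 94.1, 84.0, 93.4 and 84.3 in control, without overlap, as for lower ranks at 1.62% of all genes tested. The difference was −11.2 ± 3.08 (SE, unadjusted p = 0.00532, adjusted p = 0.176, limma), and the nearest values, 83.7 and 84.0, almost meet. The fold enrichment over input was 4.01, 3.88, 4.86, 4.68 and 2.88 against 6.17, 7.63, 5.73, 7.09 and 5.44, a log2 relative difference of −0.48 ± 0.15 at an adjusted p of 0.0546.

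The peak of *H2afx* was also lower in height, with 0.728, 0.541, 0.863, 0.729 and 0.612 in *Tip60* cKO and 0.917, 1.38, 0.915, 1.06 and 0.844 in control, overlapping at *Tip60* cKO library 3. The log2 difference in height was −0.55 (adjusted p = 0.0125, limma), and relative to the library median −0.29 (unadjusted p = 0.0450). Its local input background was 1.44 times the genome level in *Tip60* cKO and 1.22 times in control. Coverage was 24.8, 18.4, 22.2, 24.9 and 10.9% against 35.9, 29.3, 22.8, 23.8 and 38.2%. An antisense transcript (*Gm48853*) and a miRNA (*Gm44335*) start in the same window.

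*Trp53bp1* encodes 53BP1, which favours end joining at breaks (chr2:121193281-121271407). Its rank scores were 92.1, 99.1, 95.8, 90.6 and 95.7 in *Tip60* cKO and 84.4, 91.9, 85.6, 86.6 and 90.2 in control (difference 6.92 ± 2.34, SE, unadjusted p = 0.0157, adjusted p = 0.323). The groups overlap at 1 library of each. The log2 difference in height was 0.01 ± 0.15 (SE), and its local background was 1.02 and 1.14 times the genome level. Coverage was 21.5 ± 9.28 and 28.2 ± 5.13%.

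Of the other genes of this group, only *Rnf8* passed a test, for height. *Mdc1*, the reader of phosphorylated H2AX, had the rank scores 77.2, 0, 69.6, 0 and 78.3 in *Tip60* cKO and 66.8, 75.1, 72.4, 82.3 and 75.5 in control (difference −29.4, unadjusted p = 0.126). *Rad50*, of the MRN complex that tethers broken ends, had 77.8, 0, 67.8, 77.3 and 79.6 against 72.5, 76.5, 76.2, 71.7 and 87.0. In both genes the lower mean rests on libraries without a peak. *Rnf8*, the ligase upstream of RNF168, had a lower height in *Tip60* cKO (adjusted p = 0.0174), with 0.674, 0.487, 0.799, 0.82 and 0.437 against 0.947, 1.0, 0.757, 1.24 and 0.712. The groups overlap, and the call was lost relative to the library median. For *Mre11a* and *Nbn*, the nuclease and adaptor of the MRN complex, rank scores were 78.0 ± 4.58 and 77.3 ± 7.81, and 92.3 ± 7.34 and 87.5 ± 8.02.

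Homologous recombination is represented by *Brca1* and *Brca2*. *Brca1* ranked at 90.4 ± 7.11 in *Tip60* cKO and 90.7 ± 4.37 in control, and *Brca2* at 78.1 ± 4.53 and 81.5 ± 2.16. Coverage was 15.9 ± 6.07 and 22.3 ± 2.56% at *Brca1* and 18.5 ± 5.61 and 23.5 ± 5.56% at *Brca2*, and neither difference passed the test. A region on the *Nbr1* side of *Brca1* (chr11:101552807-101553357) had a peak in 3 of 5 and 5 of 5 lists (unadjusted p = 0.0137, adjusted p = 0.346).

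Among the 5 genes of non-homologous end joining, which rejoins broken ends without a template, 3 had lower and 2 higher coverage (median difference −2.36 points) and none passed an unadjusted p of 0.05, beside 81.0 and 23.2% of all genes tested. *Xrcc5*, of the Ku heterodimer that binds DNA ends, had the rank scores 83.6, 82.5, 83.1, 90.1 and 79.6 in *Tip60* cKO and 76.2, 76.5, 71.6, 89.3 and 77.5 in control (difference 5.55, unadjusted p = 0.142), with an overlap through control library 4. *Xrcc6*, the other Ku subunit, ranked at 77.0 ± 6.41 and 79.8 ± 3.31 and was lower in height (adjusted p = 0.0155). Its heights were 0.701, 0.379, 0.48, 0.607 and 0.481 against 0.621, 0.825, 0.82, 0.729 and 0.765, overlapping only through *Tip60* cKO library 1. Its annotated 5′ end lies 28534 bp before the RefSeq start, and the 2 peak regions on either side of that start, chr15:82015420-82016183 and chr15:82016414-82017010, had rank scores of 82.4 ± 11.4 and 91.6 ± 6.13 (5 and 5 lists) and of 47.0 ± 44 and 77.5 ± 6.19 (3 and 5 lists).

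*Prkdc*, the catalytic subunit of DNA-PK, had the rank scores 73.0, 72.5, 74.3, 0 and 84.7 in *Tip60* cKO and 69.2, 67.4, 0, 0 and 68.6 in control, so 1 *Tip60* cKO and 2 control lists lacked its peak. *Lig4* and *Xrcc4*, which form the ligase complex, ranked at 90 ± 6.01 and 92.5 ± 5.55, and at 93.1 ± 3.33 and 89.8 ± 4.67. *Xrcc4* was one of the 4 genes with higher coverage in *Tip60* cKO (26.5 ± 3.50 and 24.1 ± 2.95%), together with *Polb*, *Lig3* and *Prkdc*, and each of these differences lay within the spread between libraries.

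In base excision and single-strand break repair, 5 of 7 tested genes had lower coverage (median difference −5.57 points) and 2 an unadjusted p below 0.05, beside 81.0 and 23.2% of all genes tested. *Xrcc1*, the scaffold of single-strand break repair, had a coverage of 20.9, 11.8, 17.2, 19.6 and 0% in *Tip60* cKO and 25.1, 31.5, 24.7, 21.5 and 25.4% in control. The groups do not overlap, and the adjusted p was 0.116. Its rank scores were 74.7, 76.6, 79.0, 80.9 and 0 against 78.8, 77.8, 81.1, 84.0 and 75.5, and it shares its window with *Pinlyp*.

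*Ogg1*, the glycosylase for oxidised guanine, had heights of 0.512, 0.623, 0.48, 0.516 and 0.918 in *Tip60* cKO against 0.828, 0.825, 0.789, 0.62 and 0.976 in control (adjusted p = 0.0424), with an overlap through *Tip60* cKO libraries 2 and 5. Its rank score was 80.7 ± 10.1 against 74.2 ± 4.59, with a local background of 1.02 and 1.40 times the genome level. *Apex1*, the nuclease that cuts abasic sites, had rank scores of 74.7, 77.9, 72.6, 69.7 and 0 against 75.7, 68.3, 76.8, 70.6 and 72.6. Only the shallowest library lacked the *Apex1* peak. *Tdp1*, which removes topoisomerase I from DNA ends, had 86.2, 84.2, 83.1, 78.3 and 79.6 against 83.4, 69.7, 71.7, 74.9 and 82.9 (difference 5.77, unadjusted p = 0.11), and the difference turned to −1.14 when peaks were ranked by height.

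*Lig3* and *Parp1*, the ligase and the break sensor of this pathway, were strongly acetylated in both genotypes, at 97.3 ± 1.97 and 95.5 ± 2.68 and at 94.2 ± 6.47 and 94.8 ± 2.91. *Polb*, the gap-filling polymerase, ranked at 89.3 ± 3.99 and 90 ± 6.20. *Parp2* was at 0 in all libraries other than control library 3 (70.9), although its window also holds the starts of *Ccnb1ip1* and *Rpph1*, so that no peak reached the threshold in 9 lists.

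Nucleotide excision repair removes bulky lesions, and coverage was lower at 10 of its 10 genes (median difference −6.53 points) and 3 had an unadjusted p below 0.05, beside 81.0 and 23.2% of all genes tested, while 6 had a lower and 4 a higher rank score. *Ercc1*, the partner of the nuclease XPF (chr7:19344778-19356524), had the smallest p-value of all members for the rank score. It had 93.1, 86.0, 80.9, 80.9 and 97.6 in *Tip60* cKO and 75.4, 79.8, 68.9, 68.0 and 68.6 in control, without overlap, as for higher ranks at 1.93% of all genes tested. The difference was 15.6 ± 4.03 (SE, unadjusted p = 0.00372, adjusted p = 0.149, limma).

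On the scale of relative fold enrichment *Ercc1* rose, by 0.87 ± 0.16 on the log2 scale (adjusted p = 0.00236, limma). It was the only one of 33 members that passed, against 3.57% of all genes, and 6 of the 33 had an unadjusted p below 0.05 (17.9% of all). The fold enrichments were 6.78, 5.07, 4.56, 4.70 and 7.20 in *Tip60* cKO and 4.10, 4.79, 3.38, 2.35 and 3.21 in control. The height of the peak did not rise, with 0.863, 0.596, 0.639, 0.607 and 1.01 in *Tip60* cKO against 1.09, 1.18, 0.978, 0.729 and 0.844 in control (log2 difference −0.39, adjusted p = 0.0614).

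What moved with the fold enrichment of *Ercc1* was the input. The local background at its strongest peak was 1.0 times the genome level in *Tip60* cKO (1.01 at most) and 1.5, 1.93, 2.49, 2.72 and 2.30 times in control libraries 1 to 5. Its log2 ratio of −1.13 was reached or passed by 2 of the 13004 genes with a peak in all lists, 0.0154%, *Ercc1* among them. Ranked by height, the difference of *Ercc1* was −2.92 (adjusted p = 0.844). Of the 361 genes with a called higher relative fold enrichment, 345 had a lower local background in *Tip60* cKO, and of the 103 called lower, 95 had a higher one. With 1 pooled input per genotype, input and genotype cannot be told apart for this measure. The rank score uses the same fold enrichment, and coverage and peak length rest on peaks called against the same inputs. Input and genotype cannot be told apart for these measures either.

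**Figure D4:**
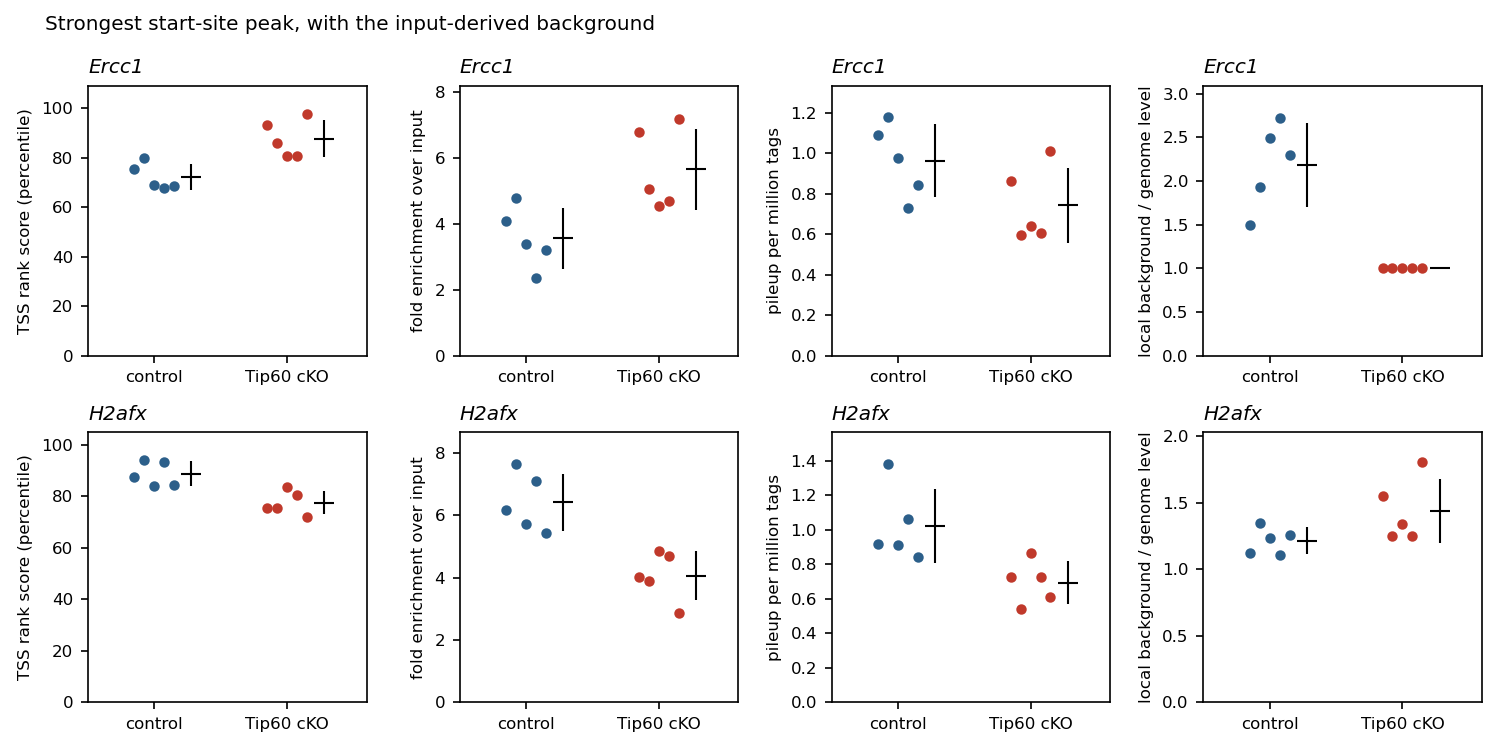
*Ercc1* (top) and *H2afx* (bottom) in each library: TSS rank score (percentile), fold enrichment over input, height (pileup per 1000000 tags) and local background divided by the genome level, with 1 point per library (5 control, 5 *Tip60* cKO) and mean ± SD. At *Ercc1* fold enrichment is higher in *Tip60* cKO while pileup is not, and the background is 2.19 in control and 1.0 in *Tip60* cKO on average, whereas at *H2afx* fold enrichment and pileup are both lower in *Tip60* cKO.

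*Ercc6*, which couples repair to transcription and is mutated in Cockayne syndrome (chr14:32513521-32580990), had a coverage of 20.5, 23.0, 10.9, 18.9 and 6.60% in *Tip60* cKO and 26.7, 32.8, 24.3, 29 and 24.5% in control, without overlap (difference −11.5 ± 3.41 points, SE, adjusted p = 0.0906, limma). Together with *Gadd45g*, *Rnf168* and *Xrcc1* it made 4 of 43 genes without overlap toward lower coverage, compared with 5.23% of all genes tested, and no member lay without overlap toward higher coverage, as 0.157% of all genes tested did. Its rank scores were 88.8 ± 7.17 and 85.9 ± 5.49.

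*Xpa*, the damage verifier (chr4:46155347-46196311), ranked at 92.9 ± 2.06 in *Tip60* cKO and 95.4 ± 3.81 in control. *Ddb1* and *Ddb2*, which recognise ultraviolet lesions, had a coverage of 33.5 ± 8.19 and 44.8 ± 3.57% (adjusted p = 0.12) and of 20.0 ± 9.08 and 28 ± 3.94%. *Xpc*, the sensor of distorted helices, had 10.9 ± 5.70 and 18.1 ± 2.33% (adjusted p = 0.172). These 3 genes share their windows with *Tkfc*, *A330069E16Rik* and *Lsm3*.

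*Ercc2* and *Ercc3* encode the helicases of TFIIH. *Ercc2* had the rank scores 69.7, 0, 0, 73.8 and 0 in *Tip60* cKO and 67.4, 69.3, 0, 0 and 69.6 in control, and *Ercc3* had 86.8, 81.4, 74.3, 0 and 74.8 against 69.2, 65.8, 73.2, 72.8 and 70.3. Peaks at *Ercc2* were weak and missing in 5 of 10 lists of both genotypes. The nuclease genes *Ercc4* (XPF) and *Ercc5* (XPG) ranked at 88.8 ± 9.69 and 85.3 ± 5.98, and at 88.4 ± 6.28 and 92.1 ± 3.28.

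*Msh6*, which recognises mismatches, had the rank scores 84.9, 74.5, 83.1, 82.5 and 0 in *Tip60* cKO and 81.4, 82.9, 70.9, 80.7 and 76.8 in control, and lacked a peak only in the shallowest library. *Top2b*, the topoisomerase of neurons that makes breaks at genes induced by activity, ranked at 95.7 ± 3.34 and 92.2 ± 4.05. Its coverage was 31.7, 26.9, 27.5, 24.4 and 21.6% in *Tip60* cKO and 32.8, 34.7, 34.2, 36.8 and 27.8% in control (difference −6.83 ± 2.61 points, SE, unadjusted p = 0.023, adjusted p = 0.155), with an overlap through *Tip60* cKO library 1 and control library 5.

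**Figure D5:**
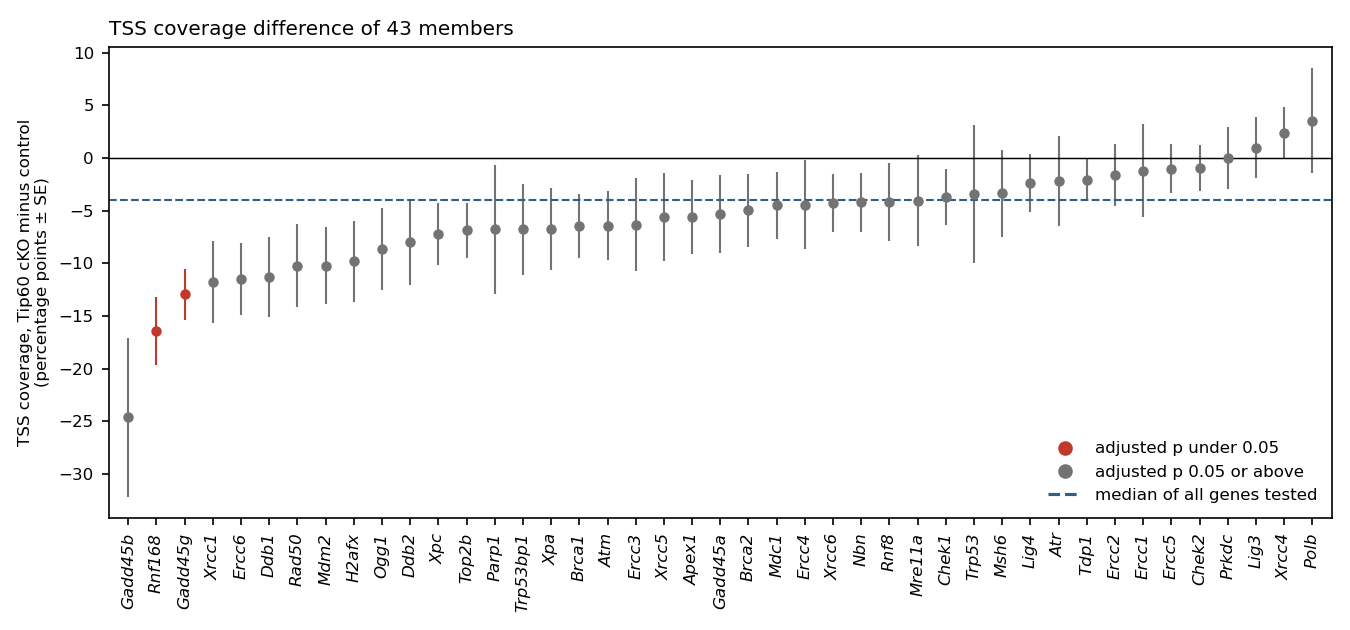
TSS coverage difference (*Tip60* cKO minus control, percentage points ± SE from limma) of the 43 tested genes, sorted, with those at an adjusted p below 0.05 in red and the median of all genes tested as a dashed line. *Gadd45b*, at −24.6, has the lowest value with a wide error, *Rnf168* and *Gadd45g* are the 2 called genes, and 4 genes lie above 0.

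In the bodies of the genes, H4K12ac peaks were sparse. Of 39 members longer than 4 kb, 8 had a body peak in all lists (*Rad50*, *Trp53bp1*, *Xrcc6*, *Parp1*, *Tdp1*, *Xpc*, *Xpa* and *Ercc6*), 22 in 1 to 9 lists and 9, *Atm* and *Chek1* among them, in none. Body coverage, the percent of the gene from 2 kb after the TSS to its end that lies in peaks, was lower in *Tip60* cKO at 21 of 27 tested members (77.8%, compared with 74.2% of all 12823 genes tested), with a median difference of −0.52 points (−0.53 over all). None passed the adjusted test (0.351% of all genes did), and 3 had an unadjusted p below 0.05, compared with 15.7% of all. *Tdp1* had a body coverage of 4.50, 3.44, 4.54, 2.32 and 1.48% in *Tip60* cKO and 4.13, 5.25, 6.49, 4.54 and 7.30% in control (difference −2.28 points, unadjusted p = 0.0208). The groups overlap. For *Chek2* the means were 0.663 ± 0.642 and 2.11 ± 0.882%, and for *Ercc4* 0.749 ± 0.546 and 1.67 ± 0.661%.

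Merged peak regions placed these differences along the genes. Of 171 regions at the members, 69 lay in TSS windows and 102 in gene bodies, and 37 and 5 of these had a peak in all 10 lists. None of the 171 passed an adjusted p of 0.05 (limma over 144701 regions, of which 0.561% passed). At an unadjusted p below 0.05 there were 19 regions, 11.1% compared with 12.0% of all regions. Among the 19 are regions with peaks in lists of a single genotype, which entered the comparison only through that genotype. No direction is therefore read from the 19. Lower rank scores were seen in 59.6% of the member regions and in 56.9% of all.

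Some member regions had a peak in 4 lists of a single genotype and in none of the other. An intronic region of *Xrcc5* (chr1:72364679-72365122) had a peak in 4 *Tip60* cKO and 0 control lists, as had a region over an exon and intron of *Trp53bp1* (chr2:121195009-121195586). Intronic regions of *Trp53bp1* (chr2:121240983-121241512) and *Tdp1* (chr12:99941326-99941878) had a peak in 0 *Tip60* cKO and 4 control lists. Such regions entered the comparison only through the genotype with peaks, so no p-value is read from them. A long intronic region of *Rad50* (chr11:53662320-53664029), present in all lists, had rank scores of 90.6 ± 5.36 and 89.0 ± 3.83. On the same scale of regions, that at the *Rad50* TSS had 60.3 ± 37.4 (a peak in 4 of 5 lists) and 80.9 ± 9.21.

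Sequencing lanes were read from the names of the lists. In lane 7 (3 libraries per genotype) and lane 8 (2 per genotype) the rank difference was 11.95 and 20.96 for *Ercc1*, −10.23 and −12.59 for *H2afx*, and 8.34 and 4.78 for *Trp53bp1*. The coverage difference was −14.20 and −10.83 points for *Gadd45g*, and −18.53 and −13.23 points for *Rnf168*. These 5 differences had the same sign in both lanes, while the coverage difference of *Ercc1* (−6.28 and 6.44 points) and the body coverage difference of *Trp53bp1* (0.17 and −4.53 points) did not. The median coverage difference of the members was −3.12 points in lane 7 (35 of 43 lower) and −9.29 points in lane 8 (38 of 43 lower). Over all genes tested it was −3.02 points (15599 of 21672 lower) and −5.46 points (17142 lower).

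A second list of 97 other genes of DNA repair, damage signalling and the p53 response was described in the same way. Of the 82 that were tested, 44 had lower rank scores (median difference −0.12), 11 had an unadjusted p below 0.05 and 0 were called, beside 55.6, 11.8 and 0.235% of all genes tested. For coverage 71 were lower (median −4.04 points), 23 had an unadjusted p below 0.05 and 0 were called, beside 81.0, 23.2 and 1.56% of all. In height 51 of 57 were lower (median log2 difference −0.25), and 10 fell at an adjusted p below 0.05, beside 21.4% of all genes, among them *Xrcc3*, *Wee1*, *Plk2*, *Ccng1*, *Neil1*, *Top1*, *Bbc3*, *Rad52* and *Polk*.

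*Plk2*, a p53-induced kinase of neurons, had the smallest p-value for the rank score, with 92.6, 91.9, 93.7, 88.1 and 88.5 in *Tip60* cKO and 98.5, 97.8, 97.9, 99.1 and 98.3 in control (difference −7.34, adjusted p = 0.112). The groups do not overlap, nor do the heights of 1.08, 0.704, 1.02, 0.82 and 0.918 against 1.45, 1.38, 1.39, 1.42 and 1.21 (log2 difference −0.61, adjusted p = 0.00616). *Mutyh*, a glycosylase that removes adenine opposite oxidised guanine, had 84.9, 94.1, 90.2, 94.6 and 93.1 against 75.5, 75.6, 84.0, 85.1 and 72.1 (adjusted p = 0.128), overlapping only through *Tip60* cKO library 1 and control library 4. For *Mutyh* the relative fold enrichment rose by 0.60 on the log2 scale (adjusted p = 0.0152), the only call of 57, while its height did not (−0.08, adjusted p = 0.681) and its local background was 1 against 1.47 times the genome level.

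*Xrcc3*, a gene of homologous recombination, had 79.3, 76.6, 81.5, 70.3 and 82.3 in *Tip60* cKO against 95.0, 88.3, 89.4, 87.2 and 82.1 in control (adjusted p = 0.228). Its heights of 0.566, 0.46, 0.639, 0.425 and 0.612 lay below all control values of 1.09, 0.884, 0.915, 0.802 and 0.659 (log2 difference −0.69, adjusted p = 0.00374). *Msh3*, a mismatch repair gene, had rank scores of 76.3, 0, 78.1, 0 and 0 against 81.9, 79.8, 91.9, 76.5 and 91.2 (adjusted p = 0.32), so its peak was called in 2 of 5 and 5 of 5 lists. *Wee1*, a kinase that delays mitosis, had heights of 0.539, 0.379, 0.607, 0.607 and 0.525 against 1.04, 0.972, 0.82, 0.656 and 0.712, without overlap (log2 difference −0.66, adjusted p = 0.00484).

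The p53 targets *Cdkn1a*, *Pmaip1*, *Fas* and *Eda2r* had no peak within 2 kb of their annotated 5′ end in any list. Body coverage of *Cdkn1a*, whose product halts the cell cycle, was lower in *Tip60* cKO by 13.1 points (difference −13.1 ± 2.56, SE, adjusted p = 0.0733, limma), so it did carry peaks inside the gene. The other 12 of the 16 p53 targets on the list were tested at the TSS, where 7 had a lower and 5 a higher rank score (median −0.45) and 11 had lower coverage (median −4.87 points). In each measure 4 had an unadjusted p below 0.05 and 0 were called, beside the shares over all genes given above for the second list. Those with a peak in all lists include *Bbc3* and *Bax*, which promote apoptosis, with rank scores of 87.4 ± 2.07 and 91.5 ± 3.12 and of 87.5 ± 4.90 and 85.6 ± 3.21.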

How the data were processed

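H4K12ac ChIP-Seq of sorted hippocampal neuronal nuclei was analysed from 10 peak lists (5 per genotype). The authors mapped reads with STAR to mm10, took out PCR duplicates with SAMtools, and called peaks in each list at q below 0.1 with MACS 2.1.0.20140616 against the pooled input of the genotype. Pileup, as deposited, is a coverage signal at each summit. Fold enrichment, as deposited, is the ratio of pileup to local input background with 1 added to both, and the authors give p-values and q-values as −log10. No reads were used here, so the DESeq analysis of the paper was not repeated. Precision is the spread between 5 libraries per genotype. The lists hold no counts, and depth was 22864189 to 37923809 tags.

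Start sites and genes were those of GENCODE M21 (GRCm38, the same build as mm10), and a peak counted if 1 base overlapped. Genes with a TSS peak in at least 2 lists (21672), in all lists (13004 for fold enrichment and height), genes longer than 4 kb with a body peak in at least 2 lists (12823) and merged regions in at least 2 lists (144701) were compared by genotype label with limma 3.58.1 in R 4.3.3, with Benjamini-Hochberg adjustment over all of them, other steps in Python 3.11.15. The limma step was tested on simulated data. Local background was recovered from pileup and fold enrichment. The members and lists were chosen with earlier results of these data known. Values in every library are given for members that passed a test (for the measure that passed), the 8 with the smallest p for the rank score, those whose groups do not overlap in rank score or coverage, those without a peak in a list, and *Atm*, *Trp53*, *Mdm2* and *Trp53bp1*, and of the other genes for the 4 with the smallest p and *Wee1*, with most others that passed by height named only. *Gadd45b*, *Top2b*, *Wee1* and the heights of *Xpa* were added after their values were seen.

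Alternatives were peaks with q below 0.01, equal peak numbers, each library left out, replicate number or lane as a covariate, lanes alone, a mean-dependent robust prior, ranking by height, windows of 1 kb, all transcripts, other list minimums and pileup per 1000000 tags. Heights over the library median and the fit without the 2 libraries with the fewest tags were added after seeing the data. Labels and paper differ in strain, sex and kit version, which entered no comparison. The count over the oligodendrocyte markers is not reported here.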

Additional observations from a re-analysis of the deposited data

Results flagged for a closer look

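The rank score and coverage of all 44 members and 4 values of the list were examined in both genotypes, leaving out *Parp2* in *Tip60* cKO, which is 0 throughout. In these 182 groups of 5 values, 19 held a value farther from the others than Dixon's 95% limit, at which chance alone flags about 1 in 20 groups. In 7 of them a single *Tip60* cKO library had no TSS peak and a rank score of 0: for *Xrcc1* (next value 74.7), *Apex1* (69.7) and *Msh6* (74.5) this was library 5, for *Atr* (69.6) and *Rad50* (67.8) library 2, and for *Prkdc* (72.5) and *Ercc3* (74.3) library 4. A peak was present in a single library at *Chek1* in *Tip60* cKO (library 1, rank score 71.4, coverage 6.25%) and at *Parp2* in control (library 3, rank score 70.9, coverage 6.97%), with 0 in the other 4.

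A further 7 values of single genes lay apart without a missing peak. In *Tip60* cKO these were low rank scores of *Brca1* (78.1, next 90.5) and *Parp1* (83.1, next 94.4) in library 4 and of *Top2b* (89.9, next 95.8) in library 1, and a low coverage of *Ercc4* (8.97%, next 24.0%) in library 5. In control they were a high coverage of *Lig3* (20.9%, next 16.9%) and a high rank score of *Ercc4* (95.6, next 84.9) in library 5, and a low coverage of *Tdp1* (9.12%, next 11.1%) in library 1. For the list, the coverage of the 43 tested members relative to all genes tested was low in control library 3 (0.951, next 1.0). *Tip60* cKO library 5 had the fewest tags and the shortest list, while libraries 2 and 4 of that genotype did not, and whether depth set the missing peaks was not tested.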

How the results depend on the processing

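The called coverage differences depended on the setting. Of the members, 2 passed in the fit reported, 1 with a robust prior, 0 with the replicate block and 0 to 4 with 1 library left out, while the number over all genes went from 40 to 1416. *Gadd45g* kept an adjusted p below 0.05 without *Tip60* cKO library 1 or 3 or control library 4 and lost it without each of the other 7 (0.0177 to 0.0789), and was at 0.249 with windows of 1 kb, 0.121 with the robust prior and 0.1 with the replicate block. *Rnf168* kept it without *Tip60* cKO library 1 or control library 3 or 4 and lost it without the other 7 (0.0233 to 0.0842), and was at 0.0978 with the block. Both stayed lower in all of these. The same replicate number marks no shared origin, and deviations of same-numbered libraries correlated by −0.04 to 0.06. The members' median coverage difference was −9.65 points with windows of 1 kb, −9.29 in lane 8 alone and −6.63 to −3.38 with 1 library left out. Their median rank difference lay between −1.01 and 0.63 with 1 library left out.

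For relative fold enrichment, 2 members passed with q below 0.01 and with the replicate block, 1 to 2 with 1 library left out, 5 by pileup per 1000000 tags and 0 by pileup over the library median, with medians of −0.30 and −0.03 by the last 2. Over all genes, 292 to 417 passed with 1 library left out, and 21.4 and 0.131% by the pileup measures. Numbers over all genes are not given for q below 0.01 and the block, so these counts of members are not read as a result about them. The further member beside *Ercc1* was *H2afx* (adjusted p 0.0477 with q below 0.01, 0.0428 with equal peak numbers, 0.0439 with the block, 0.0125 by pileup and 0.0389 without *Tip60* cKO library 3). *Ercc1* passed with each library left out (0.00111 to 0.0109) and reversed by pileup, to −0.39, and by pileup over the library median, to −0.12. With equal peak numbers it lacked a peak in a list and gave no value. *Mutyh* reversed to −0.08 by pileup. In rank score by height, *Ercc1* (−2.92), *Tdp1* (−1.14) and *Trp53* (−2.25) reversed. Member regions passed in 1 case with a robust prior, 2 without the libraries with the fewest tags, and 0 to 1 with 1 library left out. Over all regions 929 to 1407 passed with 1 library left out, and numbers over all regions are not given for the other settings. The cause of these shifts was not tested. A score of 0 says only that no peak reached the threshold in that list. The list with the fewest tags was also the shortest, and the part of depth in missing peaks was not tested.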
